A study of Mus musculus with 15 samples.

Results

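The 6 libraries compared here are regulatory T cells (Tregs) from MC903-treated ear skin, 3 of them Rora cKO and 3 wild type (WT), out of 15 libraries in the series. They were chosen by their labelled genotype and treatment, and every gene that passed a filter on low counts was tested between them. The cKO mice were Foxp3 cre-eyfp Rora fl/fl and the WT mice Foxp3 cre-eyfp, all adult C57BL/6. Both genotypes therefore carry the same Foxp3 allele, which gives Cre and a yellow fluorescent protein (YFP) to the cells that express Foxp3. The floxed Rora alleles are the one labelled difference. MC903 (calcipotriol), a vitamin D analogue, was put on the ears in ethanol 4 times, every other day, and the ears were digested for 90 minutes before CD45+CD3+CD4+YFP+ cells were sorted. The labels call the libraries biological replicates and do not say whether each is 1 mouse or a pool, so the p-values measure only the spread between these samples. No ears treated with ethanol alone were used here. The other libraries come from cKO and WT untreated skin (back skin with ears) and from WT lymph node, and the untreated ones serve below as a second, separate set of the same genotypes.

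Rora encodes ROR-alpha, a nuclear receptor that binds DNA at the hexamer AGGTCA preceded by an A/T-rich stretch and activates transcription there. In most cells it belongs to the second loop of the circadian clock: BMAL1 (gene Arntl) and CLOCK drive the Per and Cry repressors and the Rev-erb receptors from CACGTG E-boxes, while ROR proteins activate and REV-ERB proteins repress Arntl. Tregs, the Foxp3-expressing CD4 T cells that restrain immune responses, are abundant in skin. MC903 makes keratinocytes release TSLP and brings on an inflammation of the allergic type, and the series title concerns Tregs that express ROR-alpha in that setting.

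Of 13578 genes tested, 35 differed between cKO and WT Tregs of MC903 skin (0.258%), 11 higher in cKO (0.081%) and 24 lower (0.177%), at an adjusted p under 0.05 (edgeR quasi-likelihood, Benjamini-Hochberg over all genes). The genes lower in cKO included Tnfrsf25, which encodes the TNF-family receptor DR3, the chemokine receptor gene Ccr6, and the clock genes Arntl, Cry1 and Nr1d1. The genes higher in cKO included the cytotoxic granule genes Gzmb, Nkg7 and Ctsw and the type 1 transcription factor gene Tbx21. Levels are given as CPM, the counts for each 1 M of scaled library size, always for replicates 1, 2 and 3 in that order, and differences as log2 cKO minus WT with their standard error (SE). Across all 13578 genes the median log2 difference was -0.01, with 6599 genes above 0 and 6948 below. A gene's libraries are called apart where all 3 of one genotype lie above all 3 of the other, which 16% of all genes tested showed. All 35 called genes were apart, and this uses the values that made the calls.

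**Figure D1:**
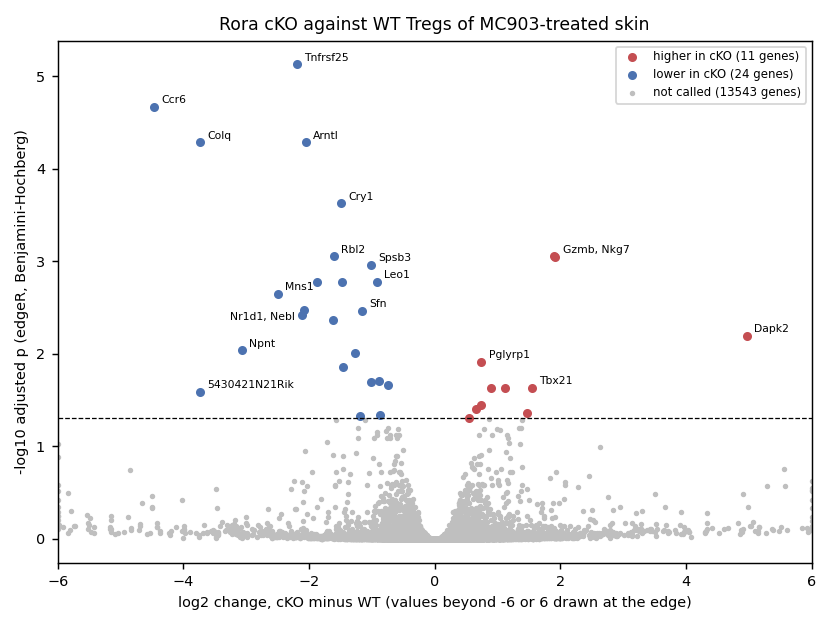
Each point is 1 of the 13578 genes tested, by its log2 difference (cKO minus WT Tregs of MC903 skin, horizontal) and -log10 of its adjusted p (vertical). The dashed line is an adjusted p of 0.05. The 11 red points on the right are higher in cKO, the 24 blue points on the left are lower, and grey points did not pass.

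Total counts of the 6 libraries ran from 21.03 to 26.96 M, within the 19.8 to 27.7 M of all 15. The first principal component of the 6 held 27.9% of their variance and did not divide the genotypes: cKO replicates 1 and 2 lay on one side, and cKO replicate 3 with all WT libraries on the other. The second held 23.7% and set WT replicate 2 apart, at -76.3 against -1.66 to 40.3 for the other 5 libraries. Without WT replicate 2 the calls numbered 22, against 35 with it. The drop was not particular to that library: without cKO replicate 3 they also numbered 22, and without any 1 library 22 to 31. The summed T cell and Treg markers stood at 14047, 12817 and 12838 CPM in cKO and 12702, 9843 and 13127 CPM in WT, which overlap. Of their 11 tested members, 3 (Cd2, Cd3d and Cd3g) were apart with cKO above (7.81% of all genes), and none was called. Markers of macrophages, dendritic and Langerhans cells summed to 1009, 1128 and 819.6 CPM in cKO and 715, 546 and 669 CPM in WT, with every cKO library above every WT library, and 9 of their 20 tested members were apart with cKO above (7.81% of all genes), though none was called. Cd74, the invariant chain of MHC class II, made up most of these sums, at 756, 637 and 534 CPM in cKO and 485, 430.2 and 478 CPM in WT, again with cKO above. Lyz2 (lysozyme) was at 48.3, 59.4 and 38.5 CPM in cKO and 19.2, 5.76 and 30.8 CPM in WT. Cd68 was at 14.4, 32.8 and 18.3 CPM in cKO and 7.55, 5.31 and 8.35 CPM in WT. Csf1r, the receptor that macrophages need to survive, was at 2.03, 13.4 and 6.82 CPM in cKO and 1.87, 0.854 and 1.86 CPM in WT. In Lyz2, Cd68 and Csf1r the cKO libraries all lay above the WT libraries. Of the 20 tested members, 17 had a log2 difference above 0 and 3 below. The dendritic cell gene Xcr1 was at 5.66, 8.10 and 7.30 CPM in cKO and 7.89, 10.1 and 9.79 CPM in WT. Zbtb46 was at 9.12, 6.74 and 10.1 CPM in cKO and 7.78, 16.7 and 8.55 CPM in WT. The Langerhans cell gene Cd207 was at 0, 1.70 and 0 CPM in cKO and 1.57, 0.409 and 0.388 CPM in WT. In these genes the genotypes overlapped. They also overlapped in Emr1, C1qc and Itgam of the same list and in the MHC class II genes H2-Aa, H2-Ab1 and H2-Eb1. H2-Aa was at 38.1, 69.7 and 44.6 CPM in cKO and 46.5, 15.9 and 29.4 CPM in WT. Keratinocyte markers overlapped between the genotypes (178, 185 and 388 CPM in cKO and 551, 207 and 607 CPM in WT), as did those of fibroblasts and endothelium, B cells, mast cells and granulocytes, and of innate lymphoid, NK, gamma-delta T and CD8 cells. In bulk RNA, fewer cells of a type and less RNA per cell cannot be told apart.

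Rora itself was read in every library. It stood at 632, 492 and 473 CPM in the cKO libraries, against 813, 739 and 812 CPM in the WT libraries. The 3 cKO libraries lay below the 3 WT libraries and none was near 0. The log2 difference was -0.57 ± 0.15 (SE, adjusted p = 0.191), which did not pass over all genes by edgeR but did with DESeq2 (-0.56) and with limma-voom (-0.61). Counts per gene do not show which exons were read. Foxp3, the gene that drives Cre here, stood at 128, 123 and 124 CPM in cKO and 159, 110.5 and 117 CPM in WT. The groups overlapped and the difference was -0.04 ± 0.24.

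Among the transcripts lower in cKO, the one with the smallest p was Tnfrsf25, whose product DR3 binds the TNF-family cytokine TL1A and costimulates Tregs. It was read at 41.8, 51.4 and 40.01 CPM in the cKO libraries, against 171, 231 and 204 CPM in the WT libraries. The highest cKO library was well below the lowest WT library, and the difference was -2.19 ± 0.16 (SE, adjusted p = 7.46e-06). The gene of the ligand TL1A, Tnfsf15, was barely read, with 5 counts over the 3 cKO libraries and 26 over the 3 WT libraries. Of 34 tested TNF receptors and ligands, Tnfrsf25 was the one lower and Cd40lg the one higher, and the list's median log2 difference was 0.17 with 22 members above 0. Cd40lg, the ligand with which T cells engage CD40 on antigen-presenting cells, stood at 55.9, 38.4 and 40.7 CPM in cKO and 20.2, 27.5 and 24.6 CPM in WT. Each cKO library exceeded each WT library, with a log2 difference of 0.90 ± 0.16 (SE, adjusted p = 0.0233). The uncalled members with the smallest p were Tnfsf14 (LIGHT), at -1.45 ± 0.35 (SE, adjusted p = 0.128), the death ligand Fasl, at 1.17 ± 0.33 (SE, adjusted p = 0.252), and Tnfsf10 (TRAIL), at 0.70 ± 0.20 (SE, adjusted p = 0.265). The costimulatory receptor genes Tnfrsf4 (OX40) and Tnfrsf18 (GITR) did not pass, at -0.06 and 0.04.

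Ccr6, the receptor for CCL20, a chemokine made by epithelia, had the most negative log2 difference of the called genes. It was read at 2.55, 4.99 and 5.20 CPM in the cKO libraries, against 76.8, 103 and 102 CPM in the WT libraries. A low level remained in all 3 cKO libraries, and the difference was -4.47 ± 0.36 (SE, adjusted p = 2.14e-05). No other gene of the 28 tested homing receptors was called, and their median log2 difference was 0.09. The eotaxin receptor gene Ccr3 stood at 148, 104 and 153 CPM in cKO and 65.99, 35.02 and 84.4 CPM in WT, apart but uncalled at 1.13 ± 0.26 (SE, adjusted p = 0.116). The skin and gut homing receptor gene Gpr15 was at 115, 114 and 80.3 CPM in cKO and 57.8, 57.7 and 41.4 CPM in WT, with 0.98 ± 0.26 (SE, adjusted p = 0.191). Ccr6 is also a gene of the type 17 programme, where it was the one call among 16 members tested. The IL-23 receptor gene Il23r was at 0.346, 0.970 and 0 CPM in cKO and 4.19, 6.13 and 4.55 CPM in WT, apart at these low levels but uncalled at -3.49 ± 1.02 (SE, adjusted p = 0.291).

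**Figure D2:**
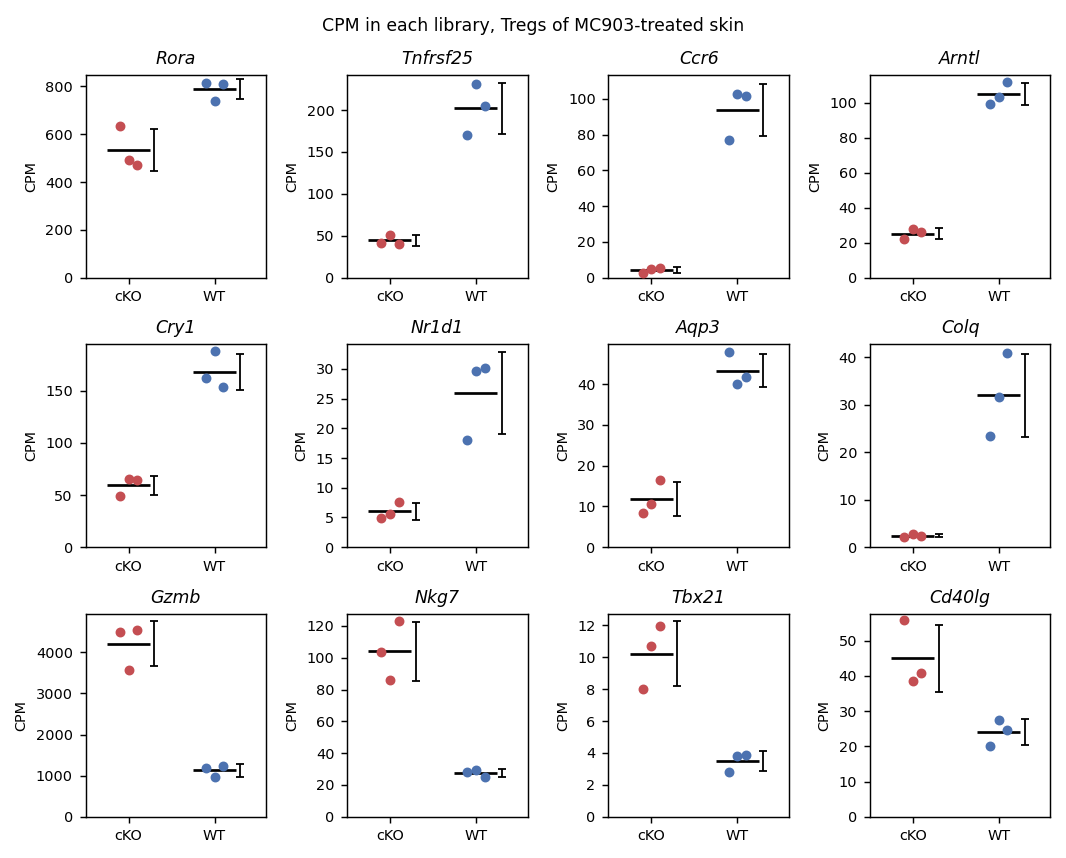
CPM (vertical, linear from 0) in each of the 3 cKO libraries (red, left) and 3 WT libraries (blue, right) of MC903 skin, 1 panel for each of 12 genes. Points are libraries, the black line is their mean and the bracket its SD. The lower genes include Ccr6, at 2.55 to 5.20 CPM in cKO against 76.8 to 103 CPM in WT. The higher genes include Gzmb, at 3574 to 4538 CPM in cKO against 956 to 1247 CPM in WT.

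The clock list held 24 tested members, of which 3 were lower (against 0.177% of all genes), none higher and 21 did not pass. Its median log2 difference was -0.29 with 9 members above 0, and 9 members were apart with cKO below (8.19% of all genes). Arntl, the gene of the activator BMAL1, was read at 21.96, 27.9 and 25.9 CPM in the cKO libraries, against 99.3, 103 and 112 CPM in the WT libraries. The groups were far apart beside their spread, and the difference was -2.05 ± 0.19 (SE, adjusted p = 5.2e-05). Cry1, a repressor of BMAL1 and CLOCK, was read at 49.1, 65.1 and 64.5 CPM in the cKO libraries, against 162, 188 and 154 CPM in the WT libraries. All cKO libraries were lower, with a log2 difference of -1.50 ± 0.16 (SE, adjusted p = 0.000237). Nr1d1, which encodes the repressor REV-ERB-alpha, was read at 4.88, 5.62 and 7.53 CPM in the cKO libraries, against 17.98, 29.6 and 30.1 CPM in the WT libraries. It too was apart, at -2.11 ± 0.31 (SE, adjusted p = 0.00381).

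The rest of the clock did not pass the test. Nr1d2, the gene of REV-ERB-beta, stood at 53.9, 38.5 and 46.5 CPM in cKO and 72.6, 89.9 and 101 CPM in WT, apart, with -0.92 ± 0.20 (SE, adjusted p = 0.0762). The next uncalled members by p were Ciart, a repressor of the clock, at -0.70 ± 0.20 (SE, adjusted p = 0.265), and Clock, the partner of BMAL1, at -0.50 ± 0.18 (SE, adjusted p = 0.492), both apart. Among the repressors, Per1, Per2, Per3 and Cry2 had log2 differences of -0.21, 1.12, -0.61 and 0.27. The output genes Dbp, Tef, Nfil3 and Bhlhe40 were at -0.78, 0.02, 0.67 and 0.01. The uncalled members thus lay on both sides of 0. The labels used here do not give the hour of collection.

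Promoter sequence was looked up for the called genes because Arntl and Nr1d1 are textbook ROR and REV-ERB targets. RefSeq windows of GRCm38.p6, from 250 bases before to 50 after a gene's start, were present for 30 of the 35 called genes. The ROR half-site TAGGTCA, searched on both strands, occurred in 4 of the 22 lower genes with a window (Ccr6, Arntl, Leo1 and S100a4) and in 0 of the 8 higher genes. Of all tested genes with a window, 233 of 10366 (2.25%) held it, and 2.61% of 32851 windows in all. The variant TGGGTCA occurred in 0 of 22 lower and 0 of 8 higher genes and in 4.16% of tested genes, and the E-box CACGTG in 4 of 22 lower genes (Cry1, Spsb3, Nebl and Ndufv1), in 1 of 8 higher genes (S100a6) and in 11.4% of tested genes. TAGGTCA and TGGGTCA are different words of equal length, so a match to one is never a match to the other, and CACGTG is its own reverse complement. The windows with the half-site are given here, 5′ to 3′ on the gene's strand, with the motif in capitals. That of Arntl is chr7:113207530-113207559 (+ strand, inside the first transcribed bases), Ccr6 is chr17:8235943-8236042 (+ strand, motif on the other strand), Leo1 is chr9:75441424-75441523 (+ strand) and S100a4 is chr3:90603670-90603769 (+ strand). For Cry1 the E-box window is chr10:85185055-85185154 (- strand). These letters describe the windows and show no binding.
Arntl: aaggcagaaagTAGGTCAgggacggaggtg
Ccr6: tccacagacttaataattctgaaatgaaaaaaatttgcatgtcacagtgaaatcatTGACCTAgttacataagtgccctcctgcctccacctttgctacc
Leo1: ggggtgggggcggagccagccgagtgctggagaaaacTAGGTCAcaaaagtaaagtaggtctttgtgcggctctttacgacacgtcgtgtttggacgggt
S100a4: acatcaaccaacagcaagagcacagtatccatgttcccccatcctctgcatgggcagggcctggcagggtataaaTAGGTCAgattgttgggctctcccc
Cry1: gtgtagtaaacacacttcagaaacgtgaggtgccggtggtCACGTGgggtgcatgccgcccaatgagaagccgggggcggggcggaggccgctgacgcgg

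The other large falls were in genes of varied roles. Colq, which encodes the collagen tail that anchors acetylcholinesterase, was read at 2.12, 2.76 and 2.29 CPM in the cKO libraries, against 23.5, 31.5 and 40.8 CPM in the WT libraries. Its cKO libraries were all far lower, with a log2 difference of -3.74 ± 0.36 (SE, adjusted p = 5.2e-05). Npnt, the gene of the extracellular matrix protein nephronectin, stood at 3.59, 1.84 and 6.34 CPM in cKO and 30.9, 35.6 and 32.7 CPM in WT. The groups were apart, with -3.07 ± 0.49 (SE, adjusted p = 0.00918), although the call was lost in 2 of the 6 fits that left out 1 library. Mns1, a gene of ciliary and flagellar structure, was at 3.28, 1.75 and 1.67 CPM in cKO and 12.1, 12.5 and 13.5 CPM in WT, and Nebl, of the actin-binding protein nebulette, at 3.24, 4.22 and 3.10 CPM in cKO and 14.9, 14.6 and 15.2 CPM in WT. Neither pair of groups overlapped, with log2 differences of -2.50 ± 0.35 (SE, adjusted p = 0.00225) for Mns1 and -2.08 ± 0.30 (SE, adjusted p = 0.00333) for Nebl.

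Aqp3, a water and glycerol channel, was read at 8.43, 10.7 and 16.4 CPM in the cKO libraries, against 47.8, 40.1 and 41.8 CPM in the WT libraries. It was the one called member of 35 tested genes of lipid uptake and oxidation, with a log2 difference of -1.87 ± 0.25 (SE, adjusted p = 0.00167). Rbl2, whose product p130 holds E2F target genes silent in resting cells, was at 42.6, 38.3 and 39.4 CPM in cKO and 109.8, 102 and 154 CPM in WT, with -1.60 ± 0.19 (SE, adjusted p = 0.000883). Both genes were apart, and no member of a 38-gene cell cycle list was called (median log2 0.03). Dpy19l3, which encodes an enzyme that mannosylates tryptophan, was at 10.2, 7.08 and 6.72 CPM in cKO and 22.1, 24.2 and 27.6 CPM in WT, with -1.62 ± 0.24 (SE, adjusted p = 0.00432). Itga3, the integrin alpha-3 subunit that binds laminins, was at 16.3, 19.7 and 22.99 CPM in cKO and 42.6, 37.1 and 53.96 CPM in WT, with -1.18 ± 0.23 (SE, adjusted p = 0.0467). It was the one call among 16 integrins. Itgb3, the uncalled integrin with the smallest p, had -0.76 ± 0.17 (SE, adjusted p = 0.0807).

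Sfn, which encodes 14-3-3 sigma, stood at 36.3, 32.3 and 42.3 CPM in cKO and 74.7, 70.98 and 101 CPM in WT, apart, with -1.15 ± 0.17 (SE, adjusted p = 0.00341). It was listed as a keratinocyte marker. That list had a median log2 difference of -1.15 over 16 tested members, and Sfn was its one call. The keratinocyte sums overlapped between the genotypes, and the part of keratinocyte RNA in the fall of Sfn was not tested. Other called falls were in the nuclear receptor gene Rarg (retinoic acid receptor gamma), at -1.47 ± 0.20 (SE, adjusted p = 0.00167), in Zc3h12c (an RNA-degrading protein of the Regnase family), at -1.46 ± 0.25 (SE, adjusted p = 0.0139), and in Spsb3 (a SOCS-box protein), at -1.01 ± 0.13 (SE, adjusted p = 0.00108). S100a4, a calcium-binding protein of motile cells, had -0.87 ± 0.17 (SE, adjusted p = 0.0462). The predicted gene 5430421N21Rik was at 0.0864, 0.679 and 1.05 CPM in cKO and 6.69, 12.3 and 5.05 CPM in WT, apart, with -3.73 ± 0.68 (SE, adjusted p = 0.0259).

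Gzmb, which encodes granzyme B, the serine protease that cytotoxic cells and some activated Tregs carry in granules, had the smallest p among the genes higher in cKO. It was read at 4506, 3574 and 4538 CPM in the cKO libraries, against 1185, 956 and 1247 CPM in the WT libraries. Every cKO library was above every WT library by a margin far larger than the spread, with 1.90 ± 0.23 (SE, adjusted p = 0.000883). Nkg7, a membrane protein of cytotoxic granules, was at 104, 85.8 and 123 CPM in cKO and 28.2, 29.6 and 25.02 CPM in WT. It was likewise apart, with 1.92 ± 0.24 (SE, adjusted p = 0.000892). Ctsw, a cathepsin of cytotoxic lymphocytes, was at 16.8, 15.9 and 30.5 CPM in cKO and 7.89, 7.39 and 7.46 CPM in WT, with cKO replicate 3 the highest. Its difference was 1.47 ± 0.29 (SE, adjusted p = 0.0434). Tbx21, which encodes T-bet, the transcription factor of type 1 lymphocytes, was at 7.996, 10.7 and 11.97 CPM in cKO and 2.80, 3.83 and 3.88 CPM in WT, apart, with 1.54 ± 0.28 (SE, adjusted p = 0.0233).

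In the type 1 and cytotoxic list, 3 of 22 tested members were higher (Gzmb, Nkg7 and Tbx21, against 0.081% of all genes), none was lower and 19 did not pass. The median log2 difference was 0.71 with 18 members above 0, and 7 were apart with cKO above (7.81% of all genes). Among the uncalled members, Ifng (interferon gamma) stood at 8.08, 3.20 and 3.77 CPM in cKO and 3.40, 0.557 and 1.36 CPM in WT, with adjusted p = 0.376. Prf1 (perforin) had 2.36 ± 0.85 (SE, adjusted p = 0.5) and Gzma (granzyme A) 2.00 ± 0.88 (SE, adjusted p = 0.701), and none of these passed. Of the genes that mark CD8 and NK cells most were at or near 0: Ncr1 and Klra8 had no count in any of the 6 libraries, Cd8a was at most 0.763 CPM and Eomes at most 0.533 CPM. Cd8b1 was read at 18.0, 21.2 and 20.8 CPM in cKO and 12.5, 8.73 and 17.6 CPM in WT, so its groups were just apart. The summed markers of innate lymphoid, NK, gamma-delta T and CD8 cells overlapped, at 20.7, 25.9 and 25.4 CPM in cKO and 19.7, 17.5 and 25.4 CPM in WT.

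Dapk2, a calmodulin-dependent death-associated kinase, was close to 0 in WT. It had 109, 143 and 64 counts in the cKO libraries, against 0, 7 and 5 counts in the WT libraries. That is 4.71, 6.93 and 3.05 CPM in cKO and 0, 0.260 and 0.194 CPM in WT, with a log2 difference of 4.97 ± 0.77 (SE, adjusted p = 0.00637). Pglyrp1, a peptidoglycan-recognition protein, was at 208, 228 and 213 CPM in cKO and 135, 109 and 144 CPM in WT, with 0.74 ± 0.12 (SE, adjusted p = 0.0122). S100a6, a calcium-binding protein, was at 1443, 1199 and 1345 CPM in cKO and 756, 822 and 809 CPM in WT, with 0.74 ± 0.14 (SE, adjusted p = 0.0355). Lmo4, a LIM-only transcriptional cofactor, was at 31.9, 43.3 and 41.7 CPM in cKO and 15.4, 18.6 and 19.8 CPM in WT, with 1.12 ± 0.20 (SE, adjusted p = 0.0233). All 3 genes were apart.

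Lbh, a transcriptional cofactor, was at 108, 110.1 and 101 CPM in cKO and 74.2, 72.8 and 71.6 CPM in WT, with 0.55 ± 0.11 (SE, adjusted p = 0.049), the largest adjusted p among the calls. Cldn25, listed under a claudin's symbol, was at 548, 496 and 423 CPM in cKO and 296, 320.3 and 314 CPM in WT, with 0.66 ± 0.13 (SE, adjusted p = 0.0391). The summed markers of macrophages, dendritic and Langerhans cells were higher in cKO as given above. Several members overlapped, among them Xcr1, Emr1 and the MHC class II gene H2-Aa. The part of such cells in the rises was not tested.

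The 10 genes just outside the threshold had adjusted p from 0.0513 to 0.0646. Log2 differences above 0 among them were those of Ly6a (0.86), which encodes the surface antigen Sca-1, Scin (1.40), an actin-severing protein, P2ry14 (1.34), a receptor for UDP-sugars, Ifitm2 (1.38), an interferon-induced membrane protein, and Cst7 (0.98), a cystatin of cytotoxic cells. Below 0 were Ckb (-1.11), Ttbk2 (-1.22), Fbxl5 (-0.74), Rab11fip1 (-0.58) and Nt5e. Nt5e, the ectoenzyme CD73 that makes adenosine from AMP, stood at 119.9, 122 and 112 CPM in cKO and 401, 339.7 and 311 CPM in WT. Its cKO libraries were all lower, with -1.57 ± 0.31 (SE, adjusted p = 0.0519).

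No gene of the type 2 programme passed the test in the 20 members measured, whose median log2 difference was 0.03. Il4 was read at 5.01, 3.98 and 4.34 CPM in cKO and 1.68, 1.97 and 1.17 CPM in WT. These low levels were apart, with 1.47 ± 0.43 (SE, adjusted p = 0.287). Il5 was at 3.72, 0.970 and 1.43 CPM in cKO and 2.65, 3.60 and 2.10 CPM in WT and Il13 at 0.951, 0.970 and 1.001 CPM in cKO and 0.187, 1.97 and 0.544 CPM in WT, and in both the groups overlapped. Their log2 differences were -0.45 ± 1.43 for Il5 and 0.11 ± 0.73 for Il13, with wide errors, so smaller changes of either sign were not detectable at this depth. Gata3, the transcription factor of type 2 lymphocytes and of tissue Tregs, was at 1033, 918 and 927 CPM in cKO and 725, 673 and 835 CPM in WT, apart, with 0.37 ± 0.13 (SE, adjusted p = 0.492). Il1rl1, the IL-33 receptor gene, was at 1067, 862 and 918 CPM in cKO and 924, 769 and 1079 CPM in WT, overlapping, with 0.04 ± 0.15, and Areg (amphiregulin) was at 233, 144 and 165 CPM in cKO and 173, 143 and 188 CPM in WT, overlapping, with 0.10 ± 0.21.

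Genes of Treg identity and suppression showed 1 call between them. Among 21 Treg identity genes and 27 tissue Treg genes none passed, with medians of 0.08 and 0.06. Ctla4 had a log2 difference of 0.09 ± 0.14 and Ccr8 of -0.21 ± 0.23. Folr4, the folate receptor family gene marking Tregs, had 1.18 ± 0.26 (SE, adjusted p = 0.0914). Of 23 suppressive molecules Gzmb was the one higher and the median was 0.31. Il10 stood at 319, 312 and 308 CPM in cKO and 210.3, 222 and 173 CPM in WT. The cKO libraries were all higher, yet the difference of 0.63 ± 0.15 (SE, adjusted p = 0.133) did not pass over all genes. Among 22 checkpoint genes none passed, and Lag3 was at 1.93 ± 0.50 (SE, adjusted p = 0.191).

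Interferon-stimulated genes held no call among 32 members, but 29 had a log2 difference above 0, the median was 0.44 and 10 were apart with cKO above, against 48.6% of all genes above 0 and 7.81% apart with cKO above. Zbp1, a sensor of left-handed nucleic acids, was at 0.89 ± 0.24 (SE, adjusted p = 0.218), and the antiviral GTPase genes Mx1 and Mx2 were at 2.47 ± 0.99 and 1.87 ± 0.74. Of 44 oxidative phosphorylation genes 34 were above 0, with a median of only 0.08, and 15 were apart with cKO above (7.81% of all genes). The one call in that list went the other way: Ndufv1, a flavoprotein subunit of complex I, was at 119, 113 and 111 CPM in the cKO libraries, against 171, 207 and 195 CPM in the WT libraries. All its cKO libraries were lower, with a log2 difference of -0.74 ± 0.13 (SE, adjusted p = 0.022). In all, 16 of the 26 gene programmes had no called member, among them NF-kappa-B targets (28 tested, median -0.01), T cell receptor activation (23 tested, -0.13), immediate early and heat shock genes (28 tested, 0.06) and TGF-beta pathway genes (26 tested, 0.01).

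**Figure D3:**
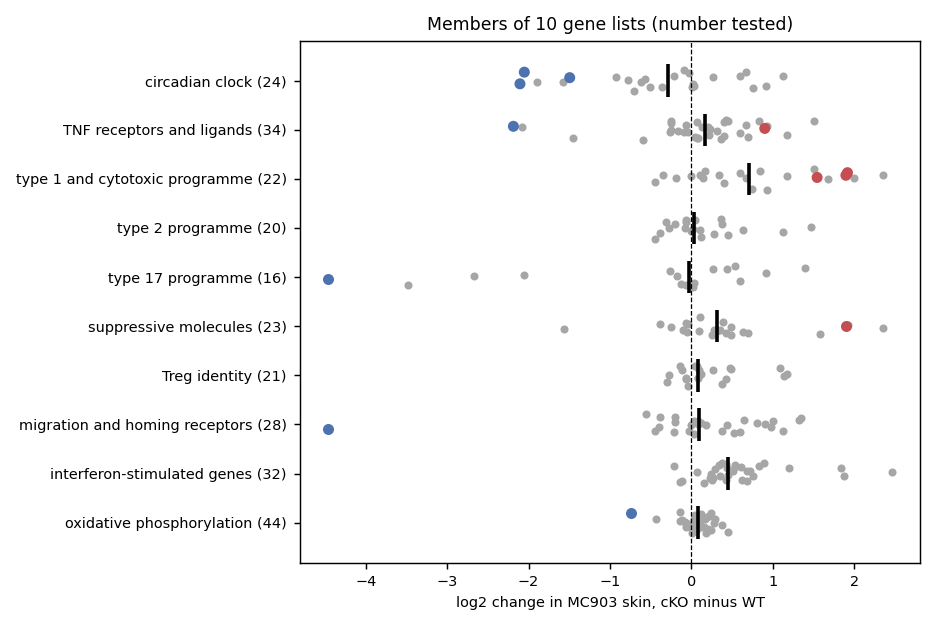
Log2 difference (cKO minus WT Tregs of MC903 skin) of every tested member of 10 gene lists, 1 row a list, with the number tested in parentheses. Coloured points are called members, red higher and blue lower in cKO, grey points did not pass, and the black bar is the list's median. The clock row has its 3 called members left of 0 and the type 1 and cytotoxic row has its 3 called members right of 0, and the median of all genes is -0.01.

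Some of the called genes lie near each other in the genome. By RefSeq gene order, Dapk2 lies 16 protein-coding genes before Rora on chromosome 9, Mns1 22 after it and Leo1, a subunit of the PAF1 transcription elongation complex, 46 after it. The log2 difference of Leo1 was -0.92 ± 0.12 (SE, adjusted p = 0.00167). Of the 50 protein-coding genes on either side of Rora, 80 were tested, 1 was higher and 2 lower (3.75%, against 0.258% of all genes). In untreated skin 2 of the 80 were higher and 3 lower, against 0.398% and 0.405% of all genes. On chromosome 19, the 8th, 9th, 10th and 21st protein-coding genes were all lower: 1810055G02Rik, the histone H4 methyltransferase gene Suv420h1, the choline kinase gene Chka, and Ndufv1. Their log2 differences, besides that of Ndufv1 above, were -0.89 ± 0.16 for 1810055G02Rik, -1.01 ± 0.18 for Suv420h1 and -1.28 ± 0.21 for Chka. They are 4 of 42 tested among the first 50 protein-coding genes there (9.52%), and 5 of the 42 were lower in untreated skin (against 0.405% of all genes). Both windows were chosen after the calls were seen. The part of DNA linked to the floxed Rora alleles in the values of Dapk2, Mns1 and Leo1 was not tested. The chromosome 19 genes lie on another chromosome than Rora, and the cause of their values was not tested.

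The same genotypes were compared in untreated skin with 6 other libraries, so the sets share no sample. There 109 genes were called (0.803%), 54 higher (0.398%) and 55 lower (0.405%) in cKO. Of the 35 genes called in MC903 skin 20 were called in untreated skin too, 5 higher and 15 lower and all in the same direction. These are 57.1% of the MC903 calls and 18.3% of the untreated calls. The log2 difference had the same sign in both for 34 of the 35, against 55.4% of all genes tested, and the untreated libraries were apart for 28 of them (13.6% of all genes). Tnfrsf25 had nearly equal log2 differences, -2.19 ± 0.16 in MC903 skin and -2.21 ± 0.17 in untreated skin, as did Gzmb at 1.90 ± 0.23 and 2.11 ± 0.23, and Arntl at -2.05 ± 0.19 and -1.82 ± 0.19. Colq was at -3.74 ± 0.36 in MC903 skin and -4.70 ± 0.38 in untreated skin. Of the 35 genes, 28 had a log2 difference of larger size in MC903 skin. They were chosen by their MC903 values, which favours larger sizes there.

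**Figure D4:**
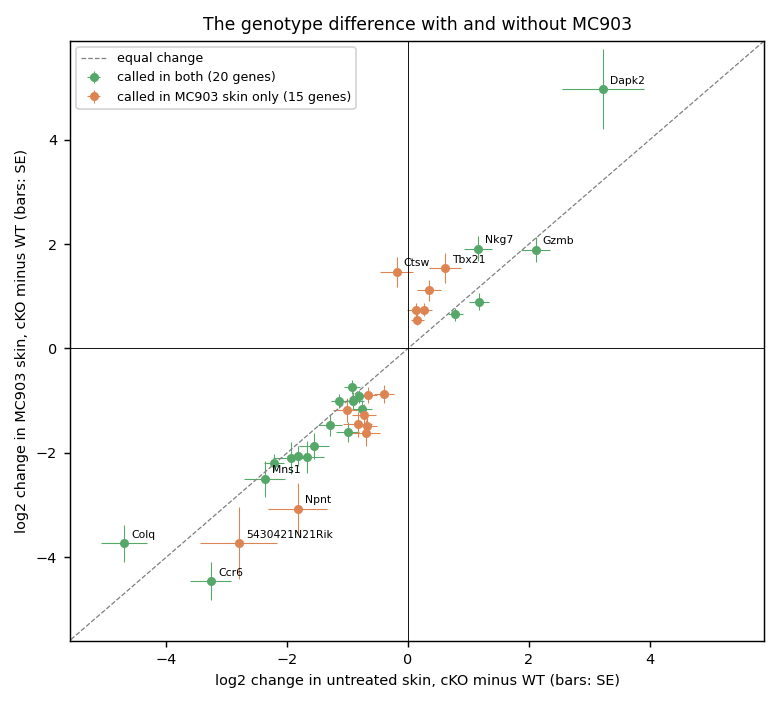
Log2 difference (cKO minus WT) with its SE for the 35 genes called in MC903 skin, in untreated skin (horizontal) and MC903 skin (vertical). Of these, 20 were also called in untreated skin, and 34 lie in the 2 quadrants where the signs agree, with Ctsw the exception. The dashed line marks equal differences.

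Whether the genotype difference itself changed between MC903 skin and untreated skin was tested as an interaction. No gene passed (0 of 13578 by edgeR, smallest adjusted p = 0.643), with 765 genes (5.63%) at an unadjusted p under 0.05. MC903 skin was ears given MC903 in ethanol, and untreated skin was back skin with ears. The interaction therefore cannot tell MC903 from ethanol or skin site. DESeq2 called 17 and limma-voom 0. Of the 35 called genes, 11 had an unadjusted interaction p under 0.05. Ctsw differed in MC903 skin but stood at 68.7, 68.2 and 59.1 CPM in cKO and 55.3, 55.8 and 113 CPM in WT in untreated skin, where the log2 difference was -0.19 ± 0.27 and the groups overlapped. Its interaction was 1.66 ± 0.39 (unadjusted p = 0.000655). Cry1 had -0.67 ± 0.16 in untreated skin (adjusted p = 0.0646) and an interaction of -0.82 ± 0.22 (unadjusted p = 0.00207). For Ccr6 the untreated difference was -3.27 ± 0.34 and the interaction -1.20 ± 0.45 (unadjusted p = 0.0185). None of these interactions passed the adjustment, and the genes were chosen by their MC903 values.

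Single libraries bore on the number of calls. Leaving out 1 of the 6 libraries gave 22 to 31 calls. The count was 23 without cKO replicate 2, 22 without cKO replicate 3 and 22 without WT replicate 2. Of the 35 genes, 18 were called in all 6 of these fits: Tnfrsf25, Ccr6, Arntl, Colq, Cry1, Rbl2, Spsb3, Leo1, Aqp3, Rarg, Gzmb, Nkg7, Mns1, Nebl, Sfn, Nr1d1, Dpy19l3 and Dapk2.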

How the data were processed

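RNA-seq libraries of sorted Tregs (15 in 5 groups of 3) were grouped by the genotype, tissue and agent in their labels. The table that the authors deposited holds whole-number raw counts of 24015 genes. Per the submitters' processing notes, reads were aligned to mm9 with TopHat2 2.0.6 and DESeq2 (no version given) was used. Per the labels' protocols, reads were 75 bp and single-end. The counting tool, its strand setting and the annotation are not given in the sources used here, so genes that share sequence or overlap (granzymes, S100 and Ifitm members) may split reads in an unknown way. The authors' deposited table of lymph node against skin was not used.

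In R 4.3.3 with edgeR 4.0.16, filterByExpr kept 13578 genes, libraries were scaled by TMM (factors 0.903 to 1.26), and 1 model was fitted to all 15 libraries, which share 1 estimate of the spread (common dispersion 0.138, a biological coefficient of variation of 37.2%). Contrasts (cKO minus WT in MC903 skin, the same in untreated skin, and their interaction) were tested with edgeR's quasi-likelihood method (robust, two-sided) and Benjamini-Hochberg adjustment over all genes. Genes with adjusted p under 0.05 are called. The SE was derived from the test, as the size of the log2 difference over the square root of its F statistic. CPM are counts scaled to 1 M per TMM-adjusted library. The scripts were first tested on simulated data. Within groups, no pair of libraries agreed within sampling noise. Reads were not tagged with molecular identifiers as far as the labels say, so PCR copies count as reads.

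Alternatives were DESeq2 1.42.0, limma 3.58.1 voom with sample weights, other scaling and filters, fewer libraries in the model, a replicate block, and leaving out each library. The main model did not treat replicate numbers as pairs. Described with every library's value are the called genes with the largest changes (12 lower, 11 higher, leaving out unnamed gene models), called members of the lists and a few genes followed throughout, and up to 3 uncalled members by p are given for main lists. The values of 5430421N21Rik are an exception chosen after its values were seen. Members and lists were chosen with earlier results of these data known. Gene order and promoter windows (300 bases) are from RefSeq for GRCm38.p6, another build than that of the counts, and were matched by symbol.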

Additional observations from a re-analysis of the deposited data

How the results depend on the processing

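Of the values recomputed for single genes under the alternatives, 1540 did not change their call, 148 lost it, 80 gained it and 8 changed sign. They include many uncalled genes, which had no call to lose. Of the 35 calls in MC903 skin, 11 were kept in all 14 alternatives other than those chosen after seeing the data. The count was 140 with DESeq2 (63 higher, 77 lower), 104 with limma-voom (50 higher, 54 lower), 47 with the 12 skin libraries (22 higher, 25 lower) and 22 to 31 without 1 library. It was 16 without both libraries numbered 3, an alternative chosen after seeing the data. In untreated skin the 109 calls became 323 with DESeq2 and 62 to 136 without 1 library (67 without cKO replicate 2, and 62 without cKO replicate 3 or WT replicate 3). The interaction had 17 calls with DESeq2 and 0 to 1 without 1 library. With a replicate block the MC903 count was 17 in the 6 libraries compared and 39 over 12 skin libraries, and the untreated count was 23 in its 6 libraries. The labels do not say whether a replicate number marks a shared mouse, litter or day. Same-numbered cKO and WT libraries of MC903 skin correlated at 0.053, 0.027 and 0.223 in their deviations from the group means. Differently numbered ones correlated at -0.146 to 0.103, and 3 of 6 libraries correlated best with their own number. With so few libraries these values do not settle whether the numbers pair them. The log2 difference of Rora passed the test with DESeq2 (-0.56) and limma-voom (-0.61). Without 1 library, uncalled genes that changed sign ran from -0.12 to 0.24 (Areg), -0.14 to 0.13 (Foxp3), -1.33 to 7.58 (G0s2), -0.38 to 1.40 (Il13) and -0.078 to 0.16 (Il1rl1), and Il13 was at -0.17 without both libraries numbered 3. The causes were not tested. With 3 libraries a group, smaller differences of low genes are not detectable at this depth.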

Other observations

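Of the 109 genes that differed by genotype in untreated skin, 89 were not called in MC903 skin, and 83 of these 89 had the same sign in both. Some had much smaller log2 differences in MC903 skin. The genes given here had the smallest unadjusted interaction p among the 89, so they are extremes and not typical of them. Gad1, which encodes an enzyme that makes GABA, stood at 33.97, 24.6 and 30.4 CPM in cKO and 21.2, 20.2 and 18.1 CPM in WT in MC903 skin, a difference of 0.58 ± 0.31 (SE, not called). In untreated skin it was at 14.2, 7.98 and 10.4 CPM in cKO and 0.851, 1.33 and 2.05 CPM in WT, a difference of 2.95 ± 0.36. Pde3b, a phosphodiesterase that degrades cyclic AMP, had a difference of 1.20 ± 0.31 in MC903 skin (not called) and 3.29 ± 0.34 in untreated skin. Sidt1, a transmembrane protein related to nematode RNA channels, had 0.19 ± 0.22 in MC903 skin (not called) and 1.75 ± 0.23 in untreated skin, and Ccrl2, an atypical receptor that binds chemerin, had -0.10 ± 0.15 (not called) and -1.15 ± 0.15. No gene passed the interaction test by edgeR, so these pairs of values are not shown to differ. The sets also differ in skin site and in ethanol, as given above.

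Genes of the response to vitamin D, the hormone that MC903 resembles, held no call among 10 tested members, with a median log2 difference of 0.55 and 8 members above 0. Of 33 tested genes of cholesterol and fatty acid synthesis and 32 of glycolysis and hypoxia, none was called, and their medians were 0.00 and 0.02. Among 23 genes of purinergic signalling none passed, and their median was 0.09.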
